A study of Mus musculus with 4 samples.

Results

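NF-κB is a family of transcription factors that pair up from 5 subunits and are held in check by IκB proteins. The genes described here were 3 canonical subunits (Rela, Rel and Nfkb1), 2 subunits of the alternative arm (Relb and Nfkb2), 3 cytoplasmic inhibitors (Nfkbia, Nfkbib and Nfkbie) and 2 nuclear IκB proteins (Nfkbiz and Bcl3). They were chosen by name, with earlier results of these data known, as 10 genes of the 21878 in the table. They were measured by RNA sequencing of bone marrow-derived macrophages, 2 libraries labelled WT and 2 labelled anti-Act1. All 4 libraries came from C57BL/6 mice whose age is given as 8 weeks, and the marrow was grown with M-CSF, the cytokine under which marrow precursors become macrophages. In both groups the macrophages shared the medium with MC38, a mouse colon cancer cell line, and the labels give 48 h of coculture. The study's own text gives a shorter coculture for this sequencing and a wider range of ages, and the conflict could not be settled here. The anti-Act1 mice carry a macrophage-specific knockdown of Act1, the adaptor of the IL-17 receptor. The promoter that drives the knockdown is not given in the sources used here. No library of macrophages grown without MC38 was analysed here, so the values compare the genotypes within coculture.

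In the canonical arm, stimuli such as TNFα or bacterial products lead the IKK complex to mark IκBα for destruction, and dimers of p65 (from Rela) or c-Rel with p50 (from Nfkb1) move into the nucleus. In the alternative arm, receptors such as CD40 or the lymphotoxin β receptor stabilise the kinase NIK (Map3k14), which leads to processing of p100 (from Nfkb2) to p52, the partner of RelB. Several of these genes are themselves textbook NF-κB targets, among them Nfkbia, whose product carries the factor back out of the nucleus. Macrophages use both arms in responses to microbes and cytokines. RNA levels do not show phosphorylation, processing or location of the proteins.

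Each library held between 55435063 and 75062945 counts, and both libraries labelled WT were deeper than both labelled anti-Act1. Traf3ip2, which encodes Act1, had 451 and 572 counts in WT and 595 and 428 in anti-Act1 (groups named by their labels). The transcript of the targeted gene was therefore not lower in the anti-Act1 group (0.27 on the log2 scale, SE 0.122, edgeR adjusted p = 0.117), and every direction given here rests on the labels. Without anti-Act1 replicate 1 this value was 0.11 (edgeR adjusted p = 0.723), and without anti-Act1 replicate 2 it was 0.41 and passed the threshold (edgeR adjusted p = 0.0343). The Y-linked genes Ddx3y, Uty and Kdm5d had 0 counts in anti-Act1 and 2248 counts or more in each WT library, so genotype and this difference cannot be told apart. Of 8 macrophage markers, all were tested, and their summed FPKM (counts per length and per depth) was 18900 to 19800 in WT and 19800 to 20200 in anti-Act1, most of it Lyz2 (15120 to 16530 FPKM). Of these markers 1 was higher (Cd14, 0.16 on the log2 scale, edgeR adjusted p = 0.0113) and 2 were lower (Itgam, -0.31, and Mertk, -0.40, edgeR adjusted p = 3.96e-06 and 4.09e-08), and their part in the results was not tested. The epithelial markers Krt8, Krt18 and Krt20 were at 0 in all libraries, and the 7 epithelial markers summed to 0.0564 to 0.171 FPKM. Cdh1 had 29 and 19 counts in WT and 16 and 4 in anti-Act1. No library of MC38 alone was analysed, so whether these markers would show MC38 cells was not tested. The 6 dendritic cell markers summed to 1.86 to 2.73 FPKM, with 0 of 6 called different. The 5 B cell markers summed to 2.39 to 3.26 FPKM, the 5 T cell markers to 0.684 to 1.03 and the 5 fibroblast markers to 0.0531 to 0.136. Of these, 2 B cell, 2 T cell and 0 fibroblast markers were tested, and 0 were called. The 6 neutrophil markers summed to 14.1 and 13.6 FPKM in WT and to 17.6 and 15.4 in anti-Act1. Most of each sum was S100a8, at 9.26 and 9.65 FPKM in WT and 15.5 and 13.9 in anti-Act1. S100a8 was the 1 marker called higher (0.66 on the log2 scale, edgeR adjusted p = 0.000564). S100a9 (-1.42) and Ngp (-2.21) were the 2 called lower (edgeR adjusted p = 0.00065 and 0.00181). The part of these markers in the results was not tested. As background for the marker counts, 20.7% of all genes tested were called in either direction. In bulk RNA, fewer cells of a type and less RNA per cell cannot be told apart.

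Within a library, levels of different genes were compared as FPKM. Nfkbia and Rela had the highest levels, at 46.9 ± 0.695 and 46.0 ± 2.76 FPKM (SD, n = 2) in WT, and these neighbours did not differ beyond their spread. Nfkbia then lay above Rela in anti-Act1, at 76.2 and 74.5 FPKM against 45.1 and 44.2. Below them, Bcl3, Nfkb1, Nfkbib, Nfkb2, Relb, Nfkbie, Nfkbiz and Rel followed in this order in both groups. Apart from Nfkbia and Rela in WT, no neighbours in either order had overlapping libraries. Rel, which encodes c-Rel, was lowest, at 5.05 and 5.42 FPKM in WT and 5.40 and 5.47 in anti-Act1. Even so, its mean stood above 51.3% of the genes with an FPKM above 0, and that of Nfkbia above 92.3%. The lowest count of any member was 783, for Rel in anti-Act1 replicate 2, so all 10 passed the filter on low counts.

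**Figure D1:**
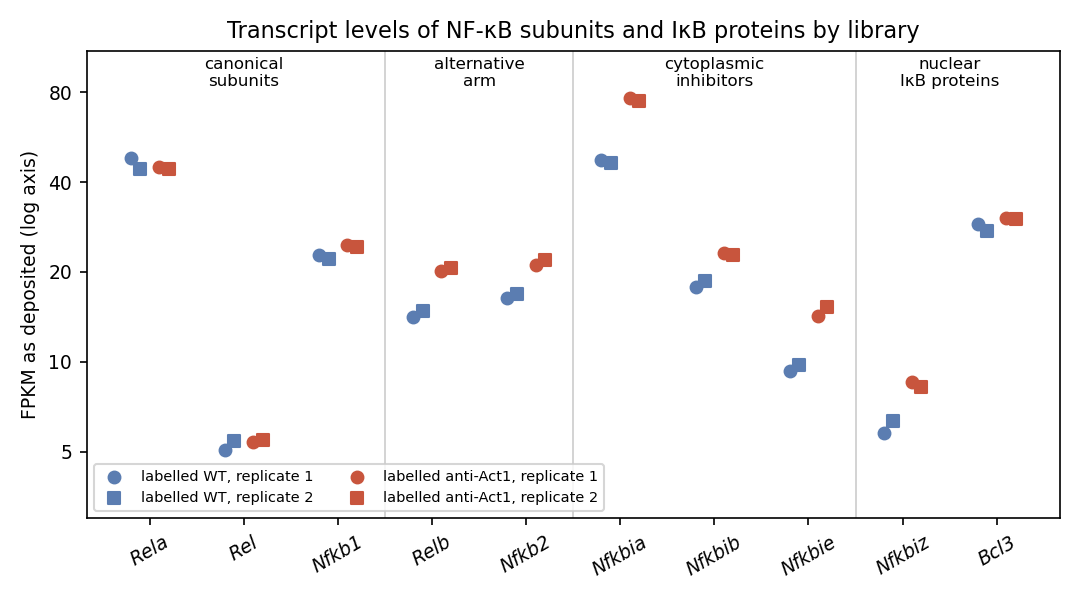
Transcript level of each gene in each library, as deposited FPKM on a log axis, with libraries labelled WT in blue, libraries labelled anti-Act1 in red, replicate 1 as circles and replicate 2 as squares. The largest gap between the groups is at Nfkbia, from 46.4 and 47.4 FPKM in WT to 74.5 and 76.2 in anti-Act1, while the libraries overlap at Rela and Rel.

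The start regions of these genes are shown because several members are known targets of NF-κB itself. RefSeq (GRCm38.p6) windows from 250 bases before to 50 after a transcript start were found for 7 of the 10 genes. Relb, Nfkb1 and Nfkbiz had no window in the table. The windows were searched on both strands for the κB consensus, the sequence that NF-κB dimers bind. It was written GGGRNNYYCC, with R for A or G, Y for C or T and N for any base. At least 1 match was found for 5 of the 7 genes (71.4%), and for 2581 of all 27025 genes with a window (9.55%). Counted by window, 2779 of all 32851 windows of the same length held one (8.46%), and a gene with several windows has more places for a match. The windows of Rela and Nfkbib held none of these letters. The capitals below mark the letters of the matches, including matches that overlap each other, and each line runs 5′ to 3′ along the gene.
Nfkbia, chr12:55492648-55492701, minus strand: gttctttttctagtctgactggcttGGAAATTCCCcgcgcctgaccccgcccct
Nfkbie, chr17:45555569-45555628, plus strand: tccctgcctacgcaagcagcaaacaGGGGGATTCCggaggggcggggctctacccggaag
Nfkb2, chr19:46304689-46304717, plus strand: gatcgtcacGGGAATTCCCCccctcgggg
Nfkb2, chr19:46304717-46304744, plus strand: gggccgaaaGGGGCTTTCCcggctggag
Nfkb2, chr19:46305445-46305493, plus strand: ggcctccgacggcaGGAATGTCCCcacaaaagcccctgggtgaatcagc
Nfkb2, chr19:46305696-46305723, plus strand: ggtattttcGGGACTTTCCtaagcagca
Rel, chr11:23771026-23771086, minus strand: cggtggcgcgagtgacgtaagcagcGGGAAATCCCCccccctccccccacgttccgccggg
Bcl3, chr7:19822735-19822762, minus strand: cggcggcagGGGAAGTCCCgctgcccgg

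The match of Nfkbia lay with its first base at -29 from the start, that of Nfkbie at -106 and that of Bcl3 at 3. Rel had 2 overlapping matches, at -92 and -91. Nfkb2 had 3 windows, for 3 annotated starts, and every one of them held a match. The first showed overlapping matches at -39 and -38 and another at -11. The second, at an internal start, showed matches at -236 and 11, and the match at 11 also lies in the third window, at -225 from its start. A match is a description of the letters, and binding was not measured. Genes with a match fell among those that differed between the groups (Nfkbia, Nfkbie and Nfkb2) and among those that did not pass the test (Rel and Bcl3), and Nfkbib differed without one.

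Between the groups, the inhibitors, the alternative-arm subunits and Nfkbiz were higher in anti-Act1, by 1.28-fold (Nfkbib) to 1.64-fold (Nfkbia). Rela and Rel, which encode transactivating subunits of the canonical arm, did not pass the test. Of the 10 genes, 7 were higher at an adjusted p under 0.05 and 0 were lower, with edgeR's quasi-likelihood test adjusted over all 12494 genes tested. Of all genes tested, 20.7% were called in either direction, 10.9% higher and 9.76% lower. Their log2 fold changes had a median of 0.38, beside -0.005 for all genes tested. In CPM (reads per gene relative to the TMM-scaled size of the library, the unit used from here on for single genes), both anti-Act1 libraries lay above both WT libraries for 9 of the 10 genes, all but Rela, and this was so for 28.4% of all genes tested. The groups did not overlap in either direction for 57.1% of all genes tested. The study's methods call the libraries of a group biological replicates. Neither the methods nor the labels say whether they came from separate mice, so the p-values measure the spread between these libraries. The genotypes' other difference, in the Y-linked genes, runs alongside every one of these values.

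**Figure D2:**
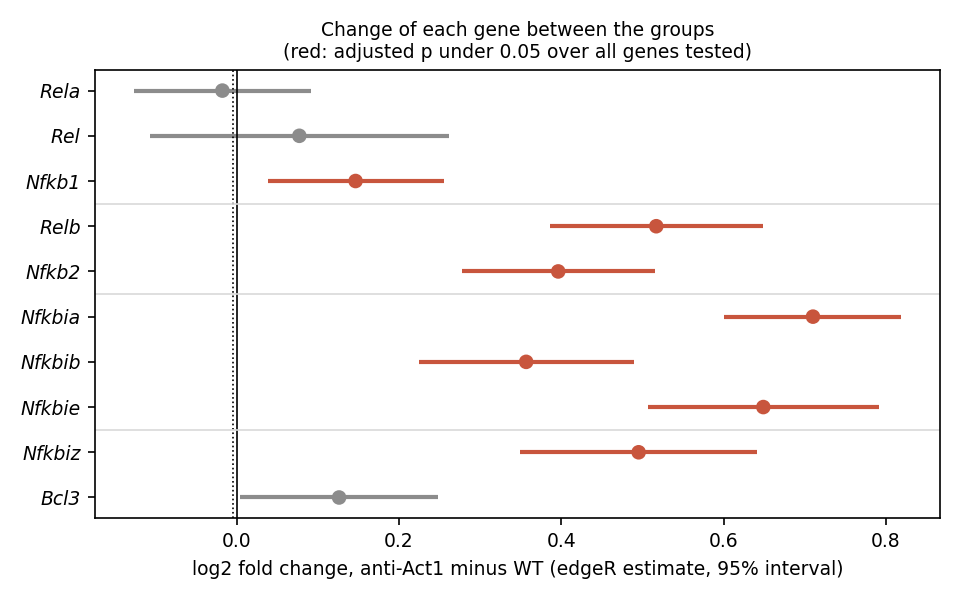
Log2 fold change of each gene, anti-Act1 minus WT, as points with the 95% interval of the edgeR estimate as bars; red marks an adjusted p under 0.05 and the dotted line the median of all genes tested (-0.005). The intervals of Nfkbia (0.601 to 0.819) and Nfkbie (0.507 to 0.791) lie farthest from 0, and those of Rela and Rel span 0.

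Among the canonical subunits, Rela, which encodes the transactivating subunit p65, was at 121.3 and 110.9 CPM in WT and at 115.0 and 114.3 in anti-Act1. Both anti-Act1 libraries lay between the WT libraries. The log2 fold change was -0.02 (SE 0.0543, 95% interval -0.127 to 0.092, edgeR adjusted p = 0.868). Rel was at 12.97 and 13.86 CPM in WT and at 13.99 and 14.34 in anti-Act1. The groups did not overlap in CPM but lay close together, and in FPKM they overlapped. Its log2 fold change was 0.08 (SE 0.0916, interval -0.107 to 0.262, edgeR adjusted p = 0.626). The interval of Rel therefore holds a change of the size found for Nfkb1, and that of Rela does not.

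Nfkb1, which encodes p105 and its product p50, was at 92.93 and 89.93 CPM in WT and at 101.6 and 100.8 in anti-Act1. Both anti-Act1 libraries were above both WT libraries, by a small margin. It rose by 0.15 on the log2 scale (SE 0.054, interval 0.038 to 0.255, edgeR adjusted p = 0.0465), the smallest change among the 7 genes called. This call was lost in 10 of 13 alternatives, where the adjusted p reached 0.239 (0.0536 with DESeq2), so the call of Nfkb1 is weak. Among the lost calls were those without WT replicate 2, anti-Act1 replicate 1 and anti-Act1 replicate 2 (edgeR adjusted p = 0.193, 0.239 and 0.2). The 6 other calls held in all 13 alternatives.

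Both subunits of the alternative arm were higher in anti-Act1. Relb, which encodes the subunit that pairs mainly with p52 or p50, was at 30.27 and 31.53 CPM in WT and at 43.53 and 44.96 in anti-Act1. The groups were well apart, with less than 2 CPM within each. It rose 1.43-fold (log2 0.52, SE 0.0648, interval 0.386 to 0.648, edgeR adjusted p = 1.62e-08). Nfkb2, which encodes p100, was at 51.32 and 52.94 CPM in WT and at 67.04 and 70.23 in anti-Act1. No library of one group reached the other. It rose 1.32-fold (log2 0.40, SE 0.0589, interval 0.278 to 0.515, edgeR adjusted p = 7.38e-07). In GENCODE M21, exons of Nfkb2 share 531 of 4584 bases with AC114539.1 and 299 with Psd, both on the other strand, and the counting is not stated to use strand. Psd itself had 283 to 372 counts in each library and differed by 0.03 on the log2 scale (edgeR adjusted p = 0.91), beside at least 3316 counts for Nfkb2. AC114539.1, with the larger overlap, was not among the genes counted, so its share of the reads could not be checked.

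All 3 cytoplasmic inhibitors rose. Nfkbia, which encodes IκBα, the inhibitor resynthesised when canonical NF-κB is active, was at 74.31 and 72.43 CPM in WT and at 120.6 and 119.4 in anti-Act1. The libraries of each group lay within 2 CPM of each other, and the groups were far apart. The rise was 1.64-fold (log2 0.71, SE 0.0542, interval 0.601 to 0.819, edgeR adjusted p = 9.21e-15). Of all genes called in either direction, 83.3% had a smaller absolute change. Nfkbie, which encodes IκBε, was at 22.35 and 23.15 CPM in WT and at 34.28 and 37.12 in anti-Act1. The groups did not overlap, and the rise was 1.57-fold (log2 0.65, SE 0.0706, interval 0.507 to 0.791, edgeR adjusted p = 4.64e-10).

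Nfkbib, which encodes IκBβ, was at 30.31 and 31.67 CPM in WT and at 39.69 and 39.70 in anti-Act1. The anti-Act1 libraries were almost identical and above both WT libraries. The rise was 1.28-fold (log2 0.36, SE 0.0655, interval 0.225 to 0.489, edgeR adjusted p = 3.67e-05). Its exons share 314 of 2169 bases with Ccer2 and 42 with Sirt2 on the other strand. Ccer2 had 0, 0, 0 and 8 counts in the libraries (WT replicate 1 and 2, then anti-Act1), and Sirt2 differed by 0.01 on the log2 scale (edgeR adjusted p = 0.903).

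Of the nuclear IκB proteins, 1 of 2 was called, and the difference between them was not tested. Nfkbiz, which encodes IκBζ, a cofactor needed for secondary NF-κB targets such as Il6, was at 21.11 and 22.99 CPM in WT and at 31.46 and 30.75 in anti-Act1. The groups did not overlap. It rose 1.41-fold (log2 0.50, SE 0.0725, interval 0.349 to 0.641, edgeR adjusted p = 5.25e-07). Bcl3, whose product binds p50 and p52 homodimers, was at 51.09 and 48.32 CPM in WT and at 54.02 and 54.45 in anti-Act1. The libraries labelled anti-Act1 lay just above those labelled WT. The log2 fold change was 0.13 (SE 0.0606, interval 0.004 to 0.248), which did not pass after adjustment (edgeR adjusted p = 0.143, 0.0835 to 0.493 in the alternatives). Its exons share 161 of 2475 bases with the antisense gene Gm16175, which was not among the genes counted and could not be checked.

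Because the genes of one arm are read in the same library, their FPKM were also set against each other within each library. The sum of the canonical subunits was 75.8 and 71.7 FPKM in WT and 75.2 and 73.9 in anti-Act1, overlapping between the groups. The sum of the alternative-arm subunits was 30.5 and 31.7 FPKM in WT and 41.3 and 42.5 in anti-Act1, and that of the 3 inhibitors 74.5 and 74.8 in WT and 113 in both anti-Act1 libraries. Of the 5 subunits' FPKM, Rela made up 45.1% and 42.6% in WT and 38.7% and 38.0% in anti-Act1. Relb made up 13.3% and 14.3% in WT and 17.3% and 17.7% in anti-Act1.

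The ratio of Relb to Rela was 0.295 and 0.336 in WT and 0.447 and 0.465 in anti-Act1, a difference of 0.53 on the log2 scale. The ratio of Nfkb2 to Nfkb1 was 0.716 and 0.764 in WT and 0.856 and 0.904 in anti-Act1, a difference of 0.25. Nfkbia was at 0.987 and 1.05 times the FPKM of Rela in WT and at 1.69 and 1.68 times in anti-Act1, a difference of 0.73. In each of these, and in the 4 other ratios that set an inhibitor or the alternative arm against the canonical subunits, the libraries of the groups did not overlap. The exact two-sided permutation test gave p = 0.333 for each of these 7 ratios, which is the smallest p that 2 libraries against 2 can give, so no ratio could pass. Rel against Rela overlapped between the groups, with 0.105 and 0.123 in WT, 0.12 and 0.124 in anti-Act1 and an exact permutation p of 0.667. All ratios reuse the reads of the single genes above, so they are not independent of those calls.

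**Figure D3:**
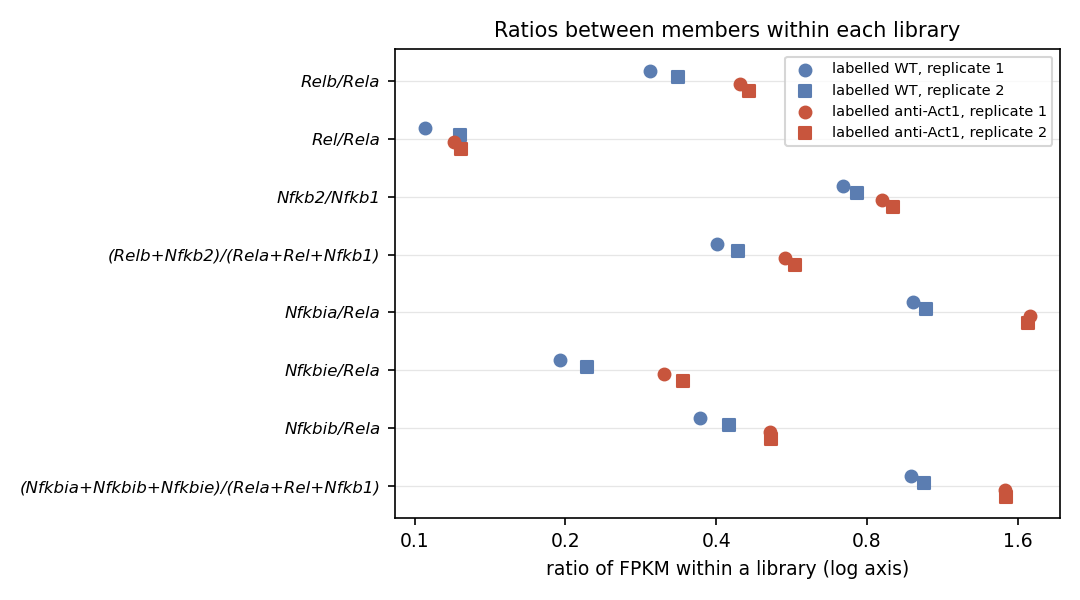
Ratio of FPKM between genes or summed groups of genes within each library, on a log axis, with libraries labelled WT in blue and anti-Act1 in red, replicate 1 as circles and replicate 2 as squares. The libraries of the groups stand apart in 7 of the 8 ratios, for example from 0.982 and 1.04 to 1.51 and 1.52 for the 3 inhibitors over the 3 canonical subunits, and overlap for Rel over Rela.

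The other genes of the pathway were taken from lists by role. Of 43 tested, 9 were higher and 4 lower, with a median log2 fold change of 0.03. Of all genes tested, 10.9% were called higher and 9.76% lower, 20.7% in either direction. These shares are the background for the count of each list that follows. Of 11 genes of the IKK complex and its upstream kinases, 0 rose and 1 fell. That gene was Ikbkb, which encodes IKKβ, the kinase of the canonical arm, at 118.2 and 117.4 CPM in WT and at 107.8 and 104.2 in anti-Act1 (log2 change -0.15, SE 0.053, edgeR adjusted p = 0.0325). It was called in 7 of 13 alternatives, and in none that left out 1 library (edgeR adjusted p = 0.0679 and 0.0603 without WT replicate 1 and 2, 0.12 and 0.311 without anti-Act1 replicate 1 and 2). The log2 fold change of Chuk, which encodes IKKα, was -0.03 (edgeR adjusted p = 0.739) and that of Ikbkg, which encodes NEMO, was 0.11 (edgeR adjusted p = 0.208). Map3k14, which encodes NIK, was at 17.07 and 15.42 CPM in WT and at 15.56 and 14.91 in anti-Act1, overlapping between the groups (edgeR adjusted p = 0.531). All 5 genes of the ubiquitin ligase that marks IκB proteins and p100 were not called, with a median of 0.02.

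Of 4 genes of the complex that degrades NIK, 2 rose. Birc3, which encodes the ligase cIAP2, was at 85.45 and 82.44 CPM in WT and at 119.2 and 116.7 in anti-Act1 (log2 change 0.49, edgeR adjusted p = 6.11e-10). Traf3, which encodes the adaptor that brings NIK to the ligases, was at 44.03 and 40.17 CPM in WT and at 51.98 and 51.02 in anti-Act1 (log2 change 0.29, edgeR adjusted p = 0.000398, called in 12 of 13 alternatives). For both, the groups did not overlap in CPM, which was so for 57.1% of all genes tested. Traf2 and Birc2, the remaining members of that complex, had log2 fold changes of 0.10 and 0.06 (edgeR adjusted p = 0.463 and 0.613).

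Of 6 tested receptors of the alternative arm, 2 rose and 1 fell. Cd40 was low but rose, with 153 and 208 counts in WT and 266 and 240 in anti-Act1 (log2 change 0.76, edgeR adjusted p = 0.000616). Tnfrsf1b, the TNF receptor 2 gene, rose from 857.1 and 872.4 CPM to 992.4 and 1019 (log2 change 0.22, edgeR adjusted p = 0.000776). Tnfrsf11a, which encodes RANK, fell from 64.32 and 69.81 CPM to 51.41 and 50.66 (log2 change -0.39, edgeR adjusted p = 1.17e-06). Tnfrsf13c, which encodes the BAFF receptor, had 0 counts in every library.

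Of 9 further feedback inhibitors tested, 4 rose and 0 fell. Tnfaip3, which encodes the ubiquitin-editing enzyme A20, was at 73.52 and 72.90 CPM in WT and at 112.5 and 113.5 in anti-Act1 (log2 change 0.63, edgeR adjusted p = 5.31e-13). Tnip3 and Zc3h12a, which encode an A20-binding protein and the RNase regnase-1, rose by 0.49 and 0.45 on the log2 scale (edgeR adjusted p = 2.79e-07 and 1.52e-07). These 3 calls held in all 13 alternatives. Their libraries did not overlap between the groups, as for 57.1% of all genes tested. Tnip1 rose by 0.16 (edgeR adjusted p = 0.0274) and was called in 7 of 13, not without WT replicate 2 or anti-Act1 replicate 2 (edgeR adjusted p = 0.0983 and 0.405). Of the 2 further IκB-like genes, Nfkbid, which encodes the nuclear protein IκBNS, fell by 0.33 on the log2 scale, from 17.44 and 17.04 CPM to 14.41 and 13.00 (edgeR adjusted p = 0.00442, called in 11 of 13 alternatives, with an adjusted p of 0.118 without anti-Act1 replicate 2). Nfkbil1 differed by 0.18 on the log2 scale (edgeR adjusted p = 0.121).

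**Figure D4:**
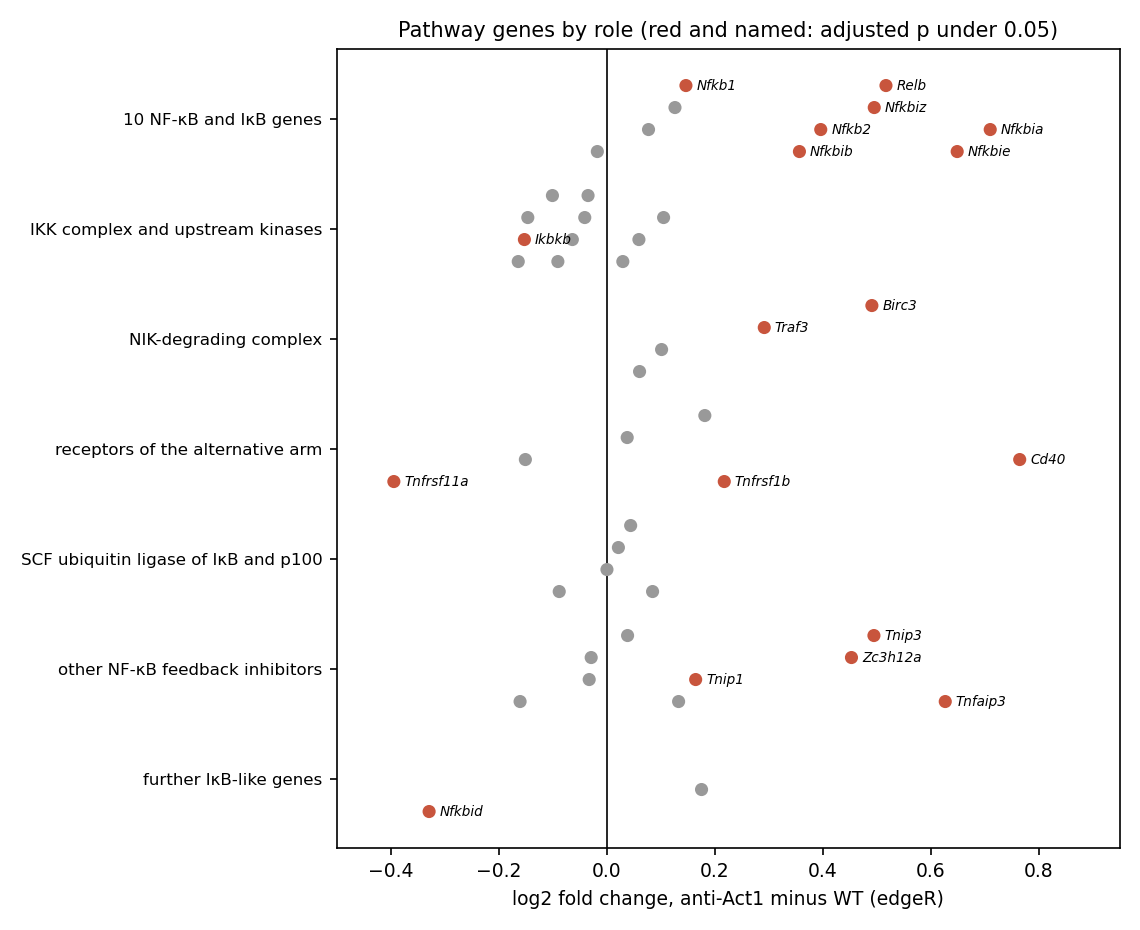
Log2 fold change, anti-Act1 minus WT, of each tested gene of 7 groups by role; red named points passed an adjusted p under 0.05 and grey points did not. The rises among the 10 NF-κB and IκB genes reach 0.71, the feedback inhibitor Tnfaip3 is at 0.63, and the genes of the IKK complex and its upstream kinases lie between -0.16 and 0.11.

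The genes known to lie downstream of the members gave few values. Of 6 lymphoid chemokines and survival factors known as targets of the alternative arm, 2 were tested and 0 were called at an edgeR adjusted p under 0.05. Ccl19, Ccl21a and Cxcl13 had 0 counts in every library, and Cxcl12 had 4 counts or fewer. Of 5 genes known to need Nfkbiz, 4 were tested. Il6 had 4 and 2 counts in WT and 17 and 18 in anti-Act1 (log2 change 2.76, SE 0.799, edgeR adjusted p = 0.00913). It was called in 6 of the 9 alternatives that gave it an adjusted p. Il6 was also fitted by DESeq2, without an adjusted p, and so was not called there. It was not called without WT replicate 2, anti-Act1 replicate 1 or anti-Act1 replicate 2 (edgeR adjusted p = 0.147, 0.0686 and 0.124). Ccl2 fell, from 877 and 971 counts to 433 and 415 (log2 fold change -0.85, SE 0.107, edgeR adjusted p = 1.62e-08). The other 2 genes tested were not called, and Csf2 had 4, 4, 0 and 0 counts and was not tested.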

How the data were processed

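The count table and the FPKM table of the whole series were used. The authors dropped reads of low quality, with poly-N or with adapter sequence, aligned read pairs with TopHat and deposited whole counts per gene without normalization. They also deposited FPKM values, counts per gene length and per library total. The submitters' processing notes name Bowtie 0.12.2, HTSeq 0.6.1 and the builds mm8 and mm10, with no role given. Counts were tested with edgeR 4.0.16 (R 4.3.3), with TMM, filterByExpr (12494 of 21878 genes), condition as the only term, the two-sided quasi-likelihood F test and Benjamini-Hochberg adjustment over all genes tested, at 0.05. Ratios within a library used FPKM and exact permutation tests. The 4 libraries fell into groups by their genotype label, 2 in each.

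Alternatives changed the tool (DESeq2 1.42.0), the scaling (DESeq2's size factors, or library totals alone), the filter (none, or 10 counts as the minimum in each library) or the model (the replicate number as a block). Others used limma 3.58.1 on log2 of FPKM with 1 or 0.1 added, keeping genes that reached an FPKM of 1 in 2 libraries, or keeping all genes with 1 added. Every library was also omitted once. The test was also run on simulated data. Named genes were Traf3ip2, the 10 genes, fixed pathway genes, the called genes of each list (at most 5) and listed genes too low to test. Marker and Y-linked genes and genes sharing exons with a member are given as values only. The members and lists were chosen with earlier results of these data known. Promoter windows are from RefSeq and exon overlaps from GENCODE M21. Intervals cover the fitted spread only.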

Additional observations from a re-analysis of the deposited data

How the results depend on the processing

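Relb, Nfkb2, Nfkbia, Nfkbib, Nfkbie and Nfkbiz were called higher in all 13 alternatives, and Rela, Rel and Bcl3 in none. Nfkb1 was called in 3 of 13, so 6 or 7 members were called in every alternative. Of all genes, 2586 were called, and 1986 with DESeq2. On log2(FPKM + 1) with all genes kept, limma called 1092. Leaving out 1 library gave 1671 to 2543 genes, namely 1712 when anti-Act1 replicate 1 was missing and 1671 when anti-Act1 replicate 2 was, where fewer libraries were compared. Pathway lists had 13 called genes, and 9 to 13 in the alternatives, with 9 without anti-Act1 replicate 2 and with limma on all genes. Values near 0 changed sign for Rela (0.047 without WT replicate 1, from -0.081 to 0.047 over the libraries left out), Chuk (0.002 without anti-Act1 replicate 2, from -0.069), Traf2 (-0.033 without WT replicate 2, up to 0.243) and the log2 ratio of Rel to Rela (-0.017 without WT replicate 1, up to 0.208). The cause was not tested. The difference between replicate 1 and replicate 2 was not shared by the groups (r = -0.035 over 12494 genes). This value cannot tell whether libraries of the same number were handled together. With the replicate number as a block, 2406 genes and 6 members were called. Without composition normalization, 1105 genes were higher and 1411 lower, beside 1366 and 1220. With 2 libraries per group, changes as small as those of Rel and Bcl3 were not resolved.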
